A study of Mus musculus with 30 samples.

Results

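The regions described here are the places in the genome of untreated mouse embryonic stem cells where peaks of the chromatin remodelers CHD4 and SMARCA4 coincided and no peak of CHD8 or SMARCA5 was listed. They were chosen from the 8 remodeler peak lists at 0 h. Peaks overlapping by at least 1 bp were merged, regions within 1 kb of a CTCF peak of untreated cells were dropped, and a region was kept when both CHD4 lists and both SMARCA4 lists had a peak in it and none of the CHD8 and SMARCA5 lists did. The rule kept 3884 of 158468 merged regions over 1 kb from CTCF, and 186686 regions had been merged before the CTCF filter. They are called CHD4-SMARCA4 regions below.

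All samples came from E14 mouse embryonic stem cells whose CTCF carries an auxin-inducible degron (CTCF AID), so that adding indole-3-acetic acid (IAA), a plant auxin, leads to its degradation. Each remodeler was read in cells that carry the degron and also a biotin-tagged form of that remodeler (biotin-CHD4, biotin-CHD8, biotin-SMARCA4 or biotin-SMARCA5), so the 4 remodelers come from different tagged cells, and the untreated cells carry the degron too. Cells were taken without IAA (0 h) or after 12 h of IAA, with 2 chromatin immunoprecipitation libraries per remodeler and time and 1 library per time for CTCF and for the cohesin subunit SMC1A. The medium was serum-free and held leukemia inhibitory factor, PD0325901 (an inhibitor of MEK) and CHIR99021 (an inhibitor of GSK3) in every group. Nothing in the labels says that replicates were separate cultures, so the spread between them may be technical.

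CHD4 is the ATPase of the NuRD complex, which joins nucleosome remodeling to histone deacetylation. SMARCA4, also named BRG1, is the ATPase of the BAF (SWI/SNF) complexes, which slide and evict nucleosomes and keep enhancers accessible. NuRD and BAF are known to act at many of the same enhancers in embryonic stem cells, where NuRD tempers the expression of pluripotency genes. CHD8 belongs to the CHD family and SMARCA5, also named SNF2H, to the ISWI family, which spaces nucleosomes.

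The lists differed in length, and the CHD4 replicate 2 lists stood apart. The lists of CHD4 replicate 2 held 187294 peaks at 0 h and 159918 at 12 h, with median peak widths of 119 and 94 bp, while the other 14 remodeler lists held between 40880 and 111947 peaks with median widths of 358 to 647 bp. Without CHD4 replicate 2 at 0 h and 12 h the rule gave 5821 regions, and without SMARCA4_0h replicate 2 it gave 6609. The lists give peaks and no read depth, so a region with no listed peak may hold signal under the authors' threshold. The CTCF list shrank from 29934 peaks at 0 h to 2248 at 12 h. After regions near 0 h CTCF peaks had been dropped, 4 of all 158468 regions lay within 1 kb of a CTCF peak at 12 h. None of these was a CHD4-SMARCA4 region.

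Some CHD4-SMARCA4 regions shared stretches of sequence with each other. Windows of 201 bases at the leading 0 h summit of each region (that of the peak ranked highest within its list) were read from the GRCm38 genome and linked when they had a run of 24 bases in common on either strand. This linked 944 of the 3884 regions (24.3%) into 59 groups, of which 6 held 10 or more regions. The largest group held 687 regions whose windows were 68.8% repeat-masked sequence on average, and its most shared run, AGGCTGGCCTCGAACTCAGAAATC, which is part of the mouse SINE B1 repeat, stood in 61 windows (1.57%, against 1.09% of all regions and 2.21% of the regions bound by CHD4 alone). The runs of this group stood in 17.7% of CHD4-SMARCA4 windows, 13.1% of all regions and 36.9% of the regions of CHD4 alone, so they are not particular to CHD4-SMARCA4 regions. The share of regions linked to each other was not computed in the other classes. Group 2, of 42 regions on 18 chromosomes, included 2 of the 6 strongest regions with only CHD4 and SMARCA4 peaks at 12 h, those nearest to Xkr4 and Cdh9. These windows are shown because they carry the runs that recur among the regions.
Xkr4, chr1:3344159-3344359, plus strand: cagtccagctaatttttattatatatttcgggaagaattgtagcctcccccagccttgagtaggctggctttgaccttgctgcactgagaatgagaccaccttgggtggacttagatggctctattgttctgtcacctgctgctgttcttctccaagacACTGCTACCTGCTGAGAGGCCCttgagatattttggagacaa
Sulf1, chr1:12587023-12587223, plus strand: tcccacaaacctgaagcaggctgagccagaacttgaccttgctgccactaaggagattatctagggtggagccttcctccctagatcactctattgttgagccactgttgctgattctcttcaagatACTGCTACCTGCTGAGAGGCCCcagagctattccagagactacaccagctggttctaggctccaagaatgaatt
Cdh9, chr15:17049340-17049540, plus strand: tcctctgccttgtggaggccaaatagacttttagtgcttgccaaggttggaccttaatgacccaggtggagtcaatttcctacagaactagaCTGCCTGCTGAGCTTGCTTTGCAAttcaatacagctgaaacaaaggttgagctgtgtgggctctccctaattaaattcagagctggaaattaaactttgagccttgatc
Capitals mark the run of 22 bases that the Xkr4 and Sulf1 windows have in common and, in the Cdh9 window, the most shared run of 24 bases of group 2. The windows printed here are centred on the summit of SMARCA4 replicate 1, and the counted windows on the leading summit.

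The run common to Xkr4 and Sulf1 stood in the windows of 20 CHD4-SMARCA4 regions (0.515%) and of 87 of all regions (0.0549%). It stood in 2 windows of CHD4 alone, in 0 of SMARCA4 alone and in 14 of the distal shared regions (0.284%). Distal shared regions, 4938 in number, had a peak in all 8 lists at 0 h and lay over 1 kb from a start site; regions of CHD4 alone or SMARCA4 alone had peaks in both lists of that remodeler and in no other remodeler list. The run marked in the Cdh9 window was found in 7 CHD4-SMARCA4 regions of 15 regions in all. The runs were picked from the CHD4-SMARCA4 regions, so these counts describe them and are no test. Of the 20 regions with the first run, 19 and 20 had a CHD4 peak in the 12 h libraries (replicates 1 and 2), 19 and 18 a SMARCA4 peak, 4 and 2 a CHD8 peak and 6 and 3 a SMARCA5 peak. Of the 42 regions of group 2, 30 had a peak in all 4 CHD4 and SMARCA4 libraries at 12 h, 38 had no CHD8 or SMARCA5 peak, and 0 lacked every CHD4 and SMARCA4 peak. Over all CHD4-SMARCA4 regions these shares were 58.1%, 52.4% and 1.42%. Reads from repeated sequence can map to several places, and how the authors treated such reads is not given in the sources used here.

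Group 3, of 20 regions on 15 chromosomes, had the run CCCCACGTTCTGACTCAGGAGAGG in 9 windows. The run holds a match to the AP-1 motif, and 75% of the group's windows had one, which follows from how the group was formed. That run stood in 96 of all regions, of which the 9 are 9.38%.

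The composite site of SOX2 and OCT4, the octamer, the SOX core and the ESRRB word were more frequent in the windows of CHD4-SMARCA4 regions than over all regions, while the TFCP2L1 and STAT motifs were not. The composite site at which SOX2 and OCT4 bind side by side had a match in 18 of 3884 windows (0.463%, exact 95% binomial interval 0.275 to 0.731) and in 0.0707% of all regions. It matched 0.203% of distal shared windows, 0.052% of windows of CHD4 alone and 0.0559% of windows of SMARCA4 alone. The 6 regions with the strongest 0 h peaks among those 18 are shown with 12 bases on either side of the match, in the orientation of the match and named by their nearest protein-coding gene.
Gtpbp4: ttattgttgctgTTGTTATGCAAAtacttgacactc
Cep170: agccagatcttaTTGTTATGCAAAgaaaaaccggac
Gm19965: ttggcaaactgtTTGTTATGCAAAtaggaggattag
Gulp1: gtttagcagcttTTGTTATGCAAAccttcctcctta
Pop1: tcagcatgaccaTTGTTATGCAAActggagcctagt
March8: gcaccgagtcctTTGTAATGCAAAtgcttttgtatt
Capitals mark the composite. They lie at chr13:9013685-9013720 (minus strand, intron), chr1:176634366-176634401 (minus, intergenic), chr1:117054999-117055034 (minus, intergenic), chr1:44891799-44891834 (minus, intergenic), chr15:34578142-34578177 (minus, intron) and chr6:116397781-116397816 (plus, intron). Of the 6, the Cep170, Gm19965, Gtpbp4, Gulp1 and March8 regions had peaks in both CHD4 and both SMARCA4 libraries at 12 h, and the Pop1 region had 1 of 2 CHD4 peaks and both SMARCA4 peaks. The Gtpbp4 and Cep170 regions also had a peak in 3 of the 4 CHD8 and SMARCA5 lists at 12 h, the Pop1 region in 1 and the others in 0. These are the strongest of the 18: over all 18, 7 (38.9%) had all 4 CHD4 and SMARCA4 peaks at 12 h, compared with 58.1% of the CHD4-SMARCA4 regions. The composite matched 0.31% of the windows with all 4 peaks (7 of 2256, interval 0.125 to 0.638). It matched 0.6% of those with 0 to 2 of them (4 of 667, interval 0.164 to 1.53). These intervals overlap, the counts are small, and the difference was not tested.

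Simpler motifs were searched as exact words on both strands of the same windows. The octamer ATGCAAAT, read by OCT4 and other POU factors, stood in 3.45% of CHD4-SMARCA4 windows and 1.59% of all regions. The SOX core ACAATGG stood in 5.46% against 3.26%. The word TCAAGGTCA, which ESRRB binds, stood in 1.98% against 1.28%, and its core AAGGTCA, which overlaps it and is bound by other nuclear receptors, in 9.58% against 6.05%. The TEAD word ACATTCC stood in 4.69% against 3.08%. The other words differed less. The AP-1 word TGANTCA stood in 8.01% against 6.28%. The KLF word GGGNGTGG stood in 13.2% against 11%, the GATA word AGATAA in 8.86% against 7.6% and the NFY word CCAAT in 24% against 22.3%. The lower limits of the exact 95% intervals for all 9 of these words lay above the value over all regions. The intervals take windows as independent, though some windows share runs, and they are no test. Leaving out regions within 1 kb of a start site, the NFY lower limit was 22.87% against 22.9% of all regions. The GATA lower limit was then 8.02% against 8%. Values in other classes lay above the value over all regions too. The distal shared windows were at 1.96% for the ESRRB word, 8.63% for its core, 12.7% for KLF, 4.74% for the SOX core and 1.94% for the octamer. The windows of SMARCA4 alone were at 4.72% for TEAD, 9.44% for GATA, 7.51% for AP-1 and 1.98% for the octamer. Differences between the classes were not tested. A match describes the letters in a window and not a bound factor.

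Matches to the CTCF core were less frequent in CHD4-SMARCA4 windows (2.68%) than over all regions (5.17%), and in windows of CHD4 alone they were at 21.3%. In distal shared windows they were at 2.57% and in windows of SMARCA4 alone at 0.81%, so the low share was not particular to CHD4-SMARCA4 regions. The motif searched for ADNP, a zinc-finger partner of CHD4, overlaps the CTCF core. Read on the other strand, it holds all fixed letters of the CTCF core except the first. It matched 0.644% of CHD4-SMARCA4 windows, 1.37% of all regions, 7.22% of windows of CHD4 alone, 0.628% of distal shared windows and 0.0559% of windows of SMARCA4 alone. This order is the same as for the CTCF core and, given the overlap, is no separate observation. YY1 (AAGATGGC) matched 1.16% against 2.3% of all regions. It matched 1.54% of distal shared windows, 1.01% of windows of SMARCA4 alone and 2.73% of windows of CHD4 alone. NRF1 matched 0 of 3884 windows, with an upper interval limit of 0.0949%, against 0.121% of all regions. ETS (CCGGAAGT) matched 0.335% against 0.596%, and STAT (TTCCNGGAA) 0.592% against 0.705%. TFCP2L1 matched 2.65% against 2.96%, and the REST motif matched 8 windows (0.206%) against 0.082% of all regions and 0.726% of windows of SMARCA4 alone. Leaving out regions within 1 kb of a start site, NRF1 had an upper interval limit of 0.103% against 0.0764% of all regions. ETS was then at 0.362% (interval 0.193 to 0.618) against 0.408%, and YY1 at 1.14% against 2.26%. The NRF1 and ETS intervals thus held the value over all regions there. All 18 motifs that were searched are named here.

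**Figure D1:**
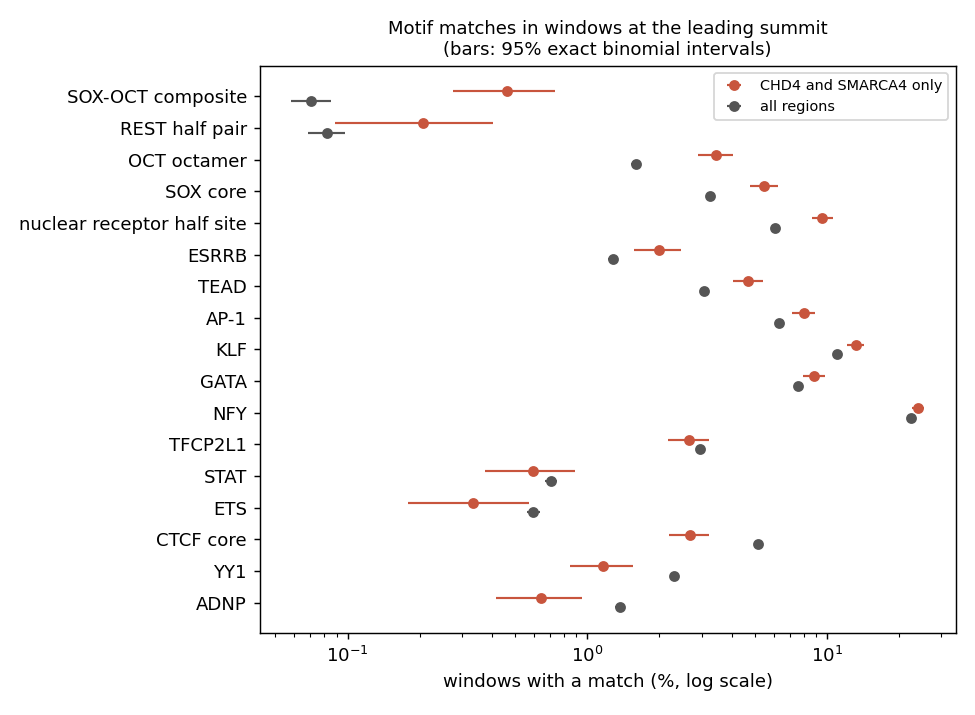
Share of 201-base windows with a match to each motif (x axis, percent, log scale) in the 3884 CHD4-SMARCA4 regions and in all 158468 regions, with exact 95% binomial intervals; NRF1, with no match in the CHD4-SMARCA4 regions, is left out. The SOX-OCT composite, the octamer and the SOX core lie above the value over all regions, and the CTCF core, YY1 and ADNP lie below it.

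The GC content of the windows was close to that over all regions, with medians of 48.3% and 49.8%, and CpG dinucleotides were fewer. No CpG was held by 17.8% of the windows, against 11.4% over all regions, and the mean number of CpGs was 2.6 against 3.96. Repeat-masked bases made up most of the window in 23.2% of CHD4-SMARCA4 regions and 21.9% of all regions, but in 49.7% of the regions of CHD4 alone and 8.58% of those of SMARCA4 alone.

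The 0 h peaks that chose the regions were of middle strength. Fold enrichment and q-values are the authors' own. The median fold enrichment was 4.6 and 4.99 in the CHD4 libraries (replicates 1 and 2) and 4.22 and 4.24 in the SMARCA4 libraries, with interquartile ranges between 3.41 and 5.99. Ranked within each list by −log10 q, the regions' best peaks had median percentiles of 55.5 and 61.3 for CHD4 and 55.8 and 49.9 for SMARCA4. In the distal shared regions these percentiles were 86.9, 90.3, 92.1 and 90.2. Median width was 944.5 bp, with quartiles of 713.75 and 1233.25 bp, against 355 bp for CHD4 alone, 608 bp for SMARCA4 alone and 2523 bp for distal shared regions. The median distance between a CHD4 and a SMARCA4 summit was 131, 138, 156 and 158 bp over the 4 pairs of libraries, compared with 126 bp between the CHD4 replicates and 116 bp between the SMARCA4 replicates.

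The edge of the rule held many regions. With peaks in all 4 CHD4 and SMARCA4 lists, 3884 regions had 0 CHD8 or SMARCA5 lists, 3660 had 1, 5883 had 2, 5380 had 3 and 11440 had all 4. Over these 5 steps the median width went from 944.5 to 2329 bp, and the share within 1 kb of a start site from 7.47% to 56.8%. The single extra list of the 3660 regions just outside was most often SMARCA5 replicate 2 (1610 regions) or CHD8 replicate 1 (992 regions), and those extra peaks were weak, with median percentiles of 38.8 and 26.4 in their lists. A further 1942 regions lacked only CHD4 replicate 2 and 2633 only SMARCA4 replicate 2. At the CTCF edge, 179 regions that met the rest of the rule overlapped a CTCF peak and 125 lay up to 1 kb away, and were dropped, while 139 lay over 1 and up to 2 kb away and were kept.

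List length entered the rule. With each remodeler list reduced to its 40870 strongest peaks, the length of the shortest list, the rule gave 620 regions of 67522 (0.918%), of which 331 overlapped a CHD4-SMARCA4 region. With a −log10 q of at least 5 in all lists it gave 2752 regions, of which 809 (29.4%) overlapped one, so which regions count as bound by CHD4 and SMARCA4 only depended on the threshold.

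CHD4-SMARCA4 regions were mostly far from genes' starts. Within 1 kb of an annotated start site lay 290 (7.47%, interval 6.66 to 8.34) against 14.1% of all regions, 120 (3.09%) had their midpoint in an exon, 1515 (39%) in an intron and 1959 (50.4%) between genes, where 36.9% of all regions lay. The median distance to a start site was 14.4 kb, against 9.86 kb over all regions, and 5.79% were over 100 kb from any start site, against 2.88%. The low share within 1 kb of a start site was not particular to them. It was 6.93% in regions of CHD4 alone and 6.2% in regions of SMARCA4 alone, whose median distances were 10.6 and 11.9 kb.

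They also lay far from CTCF. The median distance to a 0 h CTCF peak was 29.2 kb, against 17.8 kb over all regions, and 838 (21.6%) were over 100 kb away, against 10.7%. The share of all regions that were CHD4-SMARCA4 regions was 1.76% at 1 to 5 kb from CTCF, 1.76% at 5 to 10 kb, 2.05% at 10 to 25 kb, 2.56% at 25 to 50 kb, 2.88% at 50 to 100 kb and 4.96% beyond 100 kb. An SMC1A peak of untreated cells overlapped 23 of them (0.592%, interval 0.376 to 0.887), compared with 1.41% of all regions and 11.6% of distal shared regions. The share was lower still in regions of CHD4 alone (0.234%) and of SMARCA4 alone (0.0838%). CHD4-SMARCA4 regions made up 1.61% of regions on chromosome 8, the lowest share, and 3.89% on chromosome X, the highest.

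After 12 h of IAA most CHD4-SMARCA4 regions had peaks of the same remodelers. The 12 h lists were not used to choose the regions. A CHD4 peak was listed in 86.6% of them in replicate 1 (interval 85.4 to 87.6) and 70.3% in replicate 2 (68.9 to 71.8), where 45% and 33.6% of all regions had one. A SMARCA4 peak was listed in 89.4% and 87.2%, against 42.3% and 45.3% of all regions. CHD8 peaks were listed in 16.2% and 10.2%, against 22.3% and 17.8%. SMARCA5 peaks were listed in 23.4% and 23%, against 23.6% and 21.1%. All 4 CHD4 and SMARCA4 values lay above those over all regions, both CHD8 values lay below, and the SMARCA5 values were close to them. Over all regions the median width was 382 bp, and they include those with CHD8 or SMARCA5 peaks at 0 h. The rule asked for a peak in all 4 CHD4 and SMARCA4 lists at 0 h. Of all 158468 regions, 65356 had a peak in only 1 of these lists and in no CHD8 or SMARCA5 list. The values over all regions are thus a reference that differs by the choice itself, and setting the regions against them is no test. Among regions over 1000 and up to 2000 bp wide, CHD4 was at 90% and 77.5% against 85.3% and 74.5% of all regions. There SMARCA4 was at 94.9% and 92.7% against 90.6% and 91.6%. CHD8 was at 18.2% and 12.4% against 58.7% and 49.4%, and SMARCA5 at 30% and 29.4% against 60.5% and 52.3%. Among regions over 500 and up to 1000 bp wide, CHD4 was at 84.5% and 65.7% against 58.2% and 42% of all regions. SMARCA4 was at 85.7% and 84% against 58.6% and 63.3% at that width. CHD8 was at 14.5% and 8.36% against 24.1% and 17.3%, and SMARCA5 at 18.4% and 17.3% against 23.2% and 19.2%. The intervals cover counting over regions only, and the CHD4 replicates differed by more than their intervals. Means over the 2 libraries were 78.5% ± 11.5 (SD, n = 2) for CHD4, 88.3% ± 1.58 for SMARCA4, 13.2% ± 4.21 for CHD8 and 23.2% ± 0.328 for SMARCA5. Without CHD4 replicate 2 at both times they were 77.8% for CHD4 (1 library), 84.8% for SMARCA4, 11.2% for CHD8 and 20.4% for SMARCA5.

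**Figure D2:**
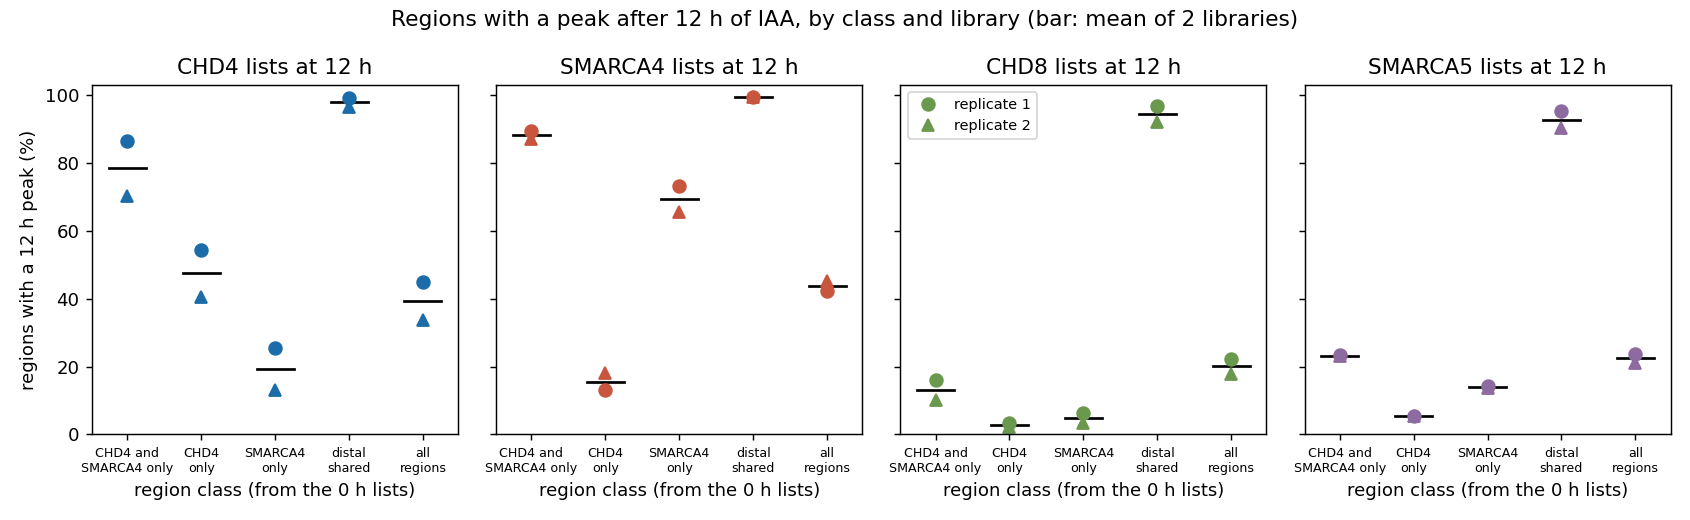
Percentage of regions with a peak in each 12 h library (y axis), by region class (x axis), with 1 panel per remodeler; circles are replicate 1, triangles replicate 2 and bars their mean. The CHD4-SMARCA4 regions sit at 70.3% to 89.4% in the CHD4 and SMARCA4 lists and at 10.2% to 23.4% in the CHD8 and SMARCA5 lists.

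By both libraries of a remodeler, 2571 regions (66.2%) had CHD4 peaks and 3163 (81.4%) SMARCA4 peaks, against 28.7% and 35.2% of all regions. Peaks in both CHD8 libraries were listed in 195 (5.02%), and in both SMARCA5 libraries in 335 (8.63%), against 15.6% and 14.3%. Both CHD4 libraries lacked a peak in 361 regions (9.29%, against 50.1% of all regions), and both SMARCA4 libraries in 186 (4.79%, against 47.6%). All 4 CHD4 and SMARCA4 lists had a peak in 2256 regions (58.1%, against 21.2% of all regions), 1 to 3 of them in 1573 (40.5%, against 44.4%), and none in 55 (1.42%, against 34.4%). Of the 2256, 1006 had no CHD8 or SMARCA5 peak at 12 h, which is 25.9% of the CHD4-SMARCA4 regions against 2.69% of all regions. A peak in all 8 lists was listed in 36 (0.927%, against 8.53%). Both SMARCA4 libraries without any CHD4 peak were seen in 204 regions (5.25%, against 6.49%), and the reverse in 57 (1.47%, against 4.2%).

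Regions with CHD4 and SMARCA4 peaks at 12 h were the wider and stronger ones at 0 h. Those with all 4 lists at 12 h had a median width of 1042 bp and those with none 689 bp. Split into 4 equal parts of 971 by their mean 0 h percentile, the regions had CHD4 peaks in 72.9% and 50.4% in the weakest part and in 97.4% and 89.5% in the strongest. For SMARCA4 the same parts had 76.8% and 76.1%, and 98.5% and 96.4%. CHD8 went from 13.5% and 7.52% to 21.2% and 13.5%, and SMARCA5 from 20.3% and 19.1% to 28.6% and 28.7%. Promoter regions (290) did not stand far from the rest, with CHD4 in 85.5% and 66.9%, SMARCA4 in 87.6% and 91.7%, CHD8 in 20% and 11.7% and SMARCA5 in 28.6% and 24.1%.

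The regions at the extremes show the range of single loci. The strongest of the regions with all CHD4 and SMARCA4 peaks and no other at 12 h lies in an intron of Xkr4, which encodes a member of the XK-related membrane protein family (chr1:3343072-3344630), 798 kb from the nearest CTCF peak. Its fold enrichment was 10.6 and 11.9 for CHD4 and 26.2 and 19.2 for SMARCA4 at 0 h, and 8.6 and 6.35 for CHD4 and 13.9 and 17.3 for SMARCA4 at 12 h. Next came an intergenic region 30948 bp from a start of Map3k8, a kinase upstream of MEK and ERK (chr18:4320535-4322067), with CHD4 at 17.5 and 14.2 and SMARCA4 at 12.8 and 12.1 at 0 h, and 14.2 and 11.1, and 18.1 and 17.9, at 12 h. The others of the first 6 were nearest to Pabpc6 (chr17:9609183-9611498), Cdh9 (chr15:17049024-17050038), a cadherin of cell adhesion, Ccdc178 (chr18:22228464-22229950) and the olfactory receptor gene Olfr510 (chr7:108677988-108679597). In these 4 the 12 h fold enrichment was 6.09 to 10.3 for CHD4 and 9.87 to 15.7 for SMARCA4. Fold enrichments are the caller's values within a list and are not compared between lists.

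The strongest regions with no CHD4 or SMARCA4 peak at 12 h were nearest to Spindoc (chr19:7385288-7387033), Grm3, a glutamate receptor gene (chr5:9755648-9756568), and the neural transcription factor gene Pou3f3 (chr1:42185732-42186751, 509 kb from its start). Their 0 h fold enrichments ranged from 3.36 to 11.8, and the Spindoc region had CHD4 at 11.8 and 10.6 but SMARCA4 at 3.59 and 3.36. The strongest with peaks in all 8 lists at 12 h were nearest to Sulf1, which encodes a sulfatase of heparan sulfate (chr1:12586339-12587821), to Tm9sf4 (chr2:153170164-153172321, in an intron of it) and to the kinase gene Pkn2 (chr3:142929863-142930895). At the Sulf1 region CHD8 was at 3.31 and 3.37 and SMARCA5 at 4.34 and 3.9, in percentiles 9.11 and 13 of the CHD8 lists and 63.7 and 61.7 of the SMARCA5 lists.

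The summit windows of a region with and of a region without CHD4 and SMARCA4 peaks at 12 h are shown as single examples. Matches to the searched motifs are in capitals: the SOX core at Olfr510 and the TEAD word at Pou3f3. The Pabpc6, Cdh9, Spindoc and Grm3 windows had no match. Over regions with all 4 of these peaks at 12 h and with 0 to 2, the SOX core stood in 5.59% and 4.5% of windows. The TEAD word stood in 4.3% and 6%. The intervals overlapped for both words, and no test was made.
Olfr510, chr7:108679163-108679363, plus strand: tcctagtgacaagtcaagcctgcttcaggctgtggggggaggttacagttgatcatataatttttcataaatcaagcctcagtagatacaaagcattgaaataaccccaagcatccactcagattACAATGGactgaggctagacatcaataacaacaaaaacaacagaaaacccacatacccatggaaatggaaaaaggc
Pou3f3, chr1:42186462-42186662, plus strand: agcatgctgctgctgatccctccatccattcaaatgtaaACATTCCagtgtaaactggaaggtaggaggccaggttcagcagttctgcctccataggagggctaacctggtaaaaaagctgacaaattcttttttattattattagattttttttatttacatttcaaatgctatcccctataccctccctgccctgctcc

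Compared with regions that had other combinations of remodelers at 0 h, the CHD4-SMARCA4 regions were in between. Against distal shared regions, where CHD4 peaks were listed at 12 h in 99.1% and 96.5% and SMARCA4 peaks in 99.4% and 99.5%, the log2 odds ratio of holding a peak was −4.18 ± 0.52 (SD, n = 4 libraries), lower in 4 of 4. The exact two-sided sign-flip permutation test over libraries gave p = 0.125 (adjusted p = 0.125 over 4 tests), which is the smallest p that 4 libraries allow, so this comparison could not reach 0.05. The ratio was −4.7 without CHD4 replicate 2 at both times. Among regions over 500 and up to 1000 bp wide, the ratio was −2.04, lower in 4 of 4 libraries.

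Against regions bound at 0 h by the same remodeler alone, the CHD4-SMARCA4 regions had more peaks at 12 h. CHD4 peaks were listed in 54.3% and 40.6% of the regions of CHD4 alone (11548 regions), and SMARCA4 peaks in 73.2% and 65.4% of the regions of SMARCA4 alone (3580 regions). The log2 odds ratio was 1.93 ± 0.35 (SD, n = 4 libraries), higher in 4 of 4, and the exact permutation p was 0.125, which 4 libraries cannot go below. In the width class of 500 to 1000 bp it was 0.86, higher in 4 of 4. There, CHD4 peaks were listed in 84.5% and 65.7% of CHD4-SMARCA4 regions and 75.2% and 60.3% of regions of CHD4 alone, and SMARCA4 peaks in 85.7% and 84% against 75.8% and 67.6%. Among regions of 1000 to 2000 bp the order for CHD4 was the other way, with 90% and 77.5% of 1608 CHD4-SMARCA4 regions against 92.5% and 81.5% of 227 regions of CHD4 alone.

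CHD8 and SMARCA5 peaks, absent from all 3 of these classes at 0 h by the rule, were listed at 12 h more often in CHD4-SMARCA4 regions. In regions of CHD4 alone CHD8 peaks were listed in 3.41% and 2.2% and SMARCA5 peaks in 5.49% and 5.41%, and in regions of SMARCA4 alone CHD8 in 6.17% and 3.32% and SMARCA5 in 14.2% and 13.8%. The log2 odds ratio against both classes together was 2.04 ± 0.16 (SD, n = 4 libraries), higher in 4 of 4, with the same exact permutation p of 0.125, and it was 1.1 in the width class of 500 to 1000 bp. The CHD8 and SMARCA5 peaks listed at 12 h in CHD4-SMARCA4 regions were weak, with median percentiles of 23.4 and 20.9 in the CHD8 lists and 36.1 and 39.1 in the SMARCA5 lists, where distal shared regions had 64.9 and 58.8, and 83.3 and 82.7. Width thus moved with all 3 comparisons, and its part in them beyond these width-matched values was not tested. Strength at 0 h moved with them too. The median percentiles of the 0 h SMARCA4 peaks were 38 and 28.5 in regions of SMARCA4 alone, against 55.8 and 49.9 in CHD4-SMARCA4 regions, and those of the CHD4 peaks were 48.1 and 53.3 in regions of CHD4 alone, against 55.5 and 61.3. The part of 0 h strength in these comparisons was not tested.

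Within the CHD4-SMARCA4 regions, peaks of CHD8 and SMARCA5 at 12 h were listed more often near CTCF sites in each of their 4 libraries, and the same held in the other regions. Within 10 kb of a 0 h CTCF peak (954 regions) CHD8 peaks were listed in 21% and 13.4%, and farther away (2930 regions) in 14.6% and 9.18%. SMARCA5 peaks were listed in 26.2% and 28.6% near and 22.5% and 21.1% far. SMARCA4 was at 89.6% and 89% near and 89.4% and 86.6% far, and CHD4 at 85.6% and 70.1% near and 86.9% and 70.4% far. In the regions that are not CHD4-SMARCA4 regions, CHD8 was at 24.6% and 19.4% near against 21.2% and 17.2% far, and SMARCA5 at 24% and 22% against 23.4% and 20.6%. CHD4 was at 46.3% and 33.8% near against 42.7% and 32.1% far in those regions, and SMARCA4 at 40.8% and 46.2% against 41.3% and 43.2%. Whether near and far differed by more in CHD4-SMARCA4 regions than in the others was not tested. Over the 8 libraries the log2 odds ratio of near against far was 0.29 ± 0.31 (SD, n = 8 libraries), higher near in 6 of 8, with an exact sign-flip permutation p of 0.0469 and an adjusted p of 0.125, so it did not pass after adjustment. Without CHD4_0h replicate 2 in the rule it was 0.40, higher in 8 of 8, with an exact permutation p of 0.00781 and an adjusted p of 0.0312, and with −log10 q of at least 5 it was 0.08, higher in 3 of 8, adjusted p = 0.609. Without SMARCA4_0h replicate 2 it was 0.10, with an adjusted p of 0.398. The adjusted p by the sign-flip permutation ranged from 0.0312 to 0.609 over the alternatives. Median width was 929.5 bp near and 946 bp far. Beyond 100 kb CHD8 was down to 9.19% and 6.68% and SMARCA5 to 19.5% and 14.3%, while CHD4 was at 91.1% and 77.7%.

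**Figure D3:**
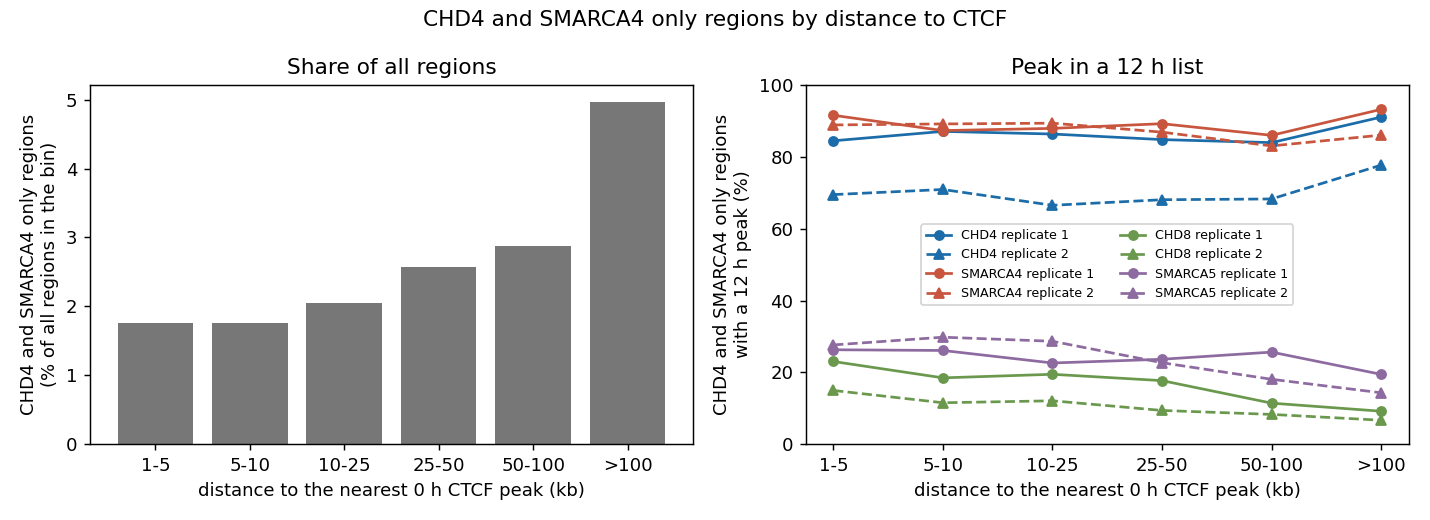
Left, CHD4-SMARCA4 regions as a percentage of all regions in bins of distance to the nearest 0 h CTCF peak (kb). Right, percentage of the CHD4-SMARCA4 regions in each bin with a peak in each 12 h library. The share grows from 1.76% to 4.96% with distance, and CHD8 goes from 23% and 15% at 1 to 5 kb to 9.19% and 6.68% beyond 100 kb.

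Whether the regions changed between 0 h and 12 h cannot be read on the regions themselves, since the 0 h lists chose them. The rule was therefore applied to the libraries of 1 replicate number and read in the other number at 0 h and in both libraries at 12 h. Chosen by replicate 1 (14519 regions), CHD4 peaks were listed in 64.6% in the held-out 0 h library and in 72.9% and 53.9% at 12 h. SMARCA4 was at 60.4% at 0 h and 74.2% and 76.1% at 12 h, a difference of 14.8 points that all regions showed too (13.7 points). CHD8 was at 5.77% at 0 h and 15.5% and 10% at 12 h, 7.03 points higher by the mean, against 4.42 points over all regions. The CHD4 libraries at 12 h lay on either side of the 0 h value, and SMARCA5 was at 21.9% and then 24.4% and 21.7%.

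Chosen by replicate 2 (9611 regions), CHD4 was at 81.1% at 0 h and 82.3% and 62.2% at 12 h, and SMARCA4 at 83.4% and then 85.9% and 85%. CHD8 was at 19.8% at 0 h and 24.8% and 14.1% at 12 h, so the 12 h libraries lay on either side of it. SMARCA5 was at 15.1% at 0 h and 26.2% and 25% at 12 h, 10.6 points higher, while all regions were 6.47 points higher. With 1 library against 2 the smallest two-sided exact permutation p is 0.333, so no test was made. Applied to the 12 h lists, the rule gave 3965 regions, 2.61% of the regions merged from them where the 0 h rule kept 2.45%, and 944 of the 3884 (24.3%) and 945 of the 3965 (23.8%) overlapped. Read at 0 h, the regions chosen at 12 h had CHD4 peaks in 81.9% and 76.3%, SMARCA4 peaks in 76.4% and 63.7%, CHD8 peaks in 11.9% and 5.83% and SMARCA5 peaks in 10.8% and 16%. In such an overlap a change between the times and the choice of regions by listed peaks cannot be told apart.

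**Figure D4:**
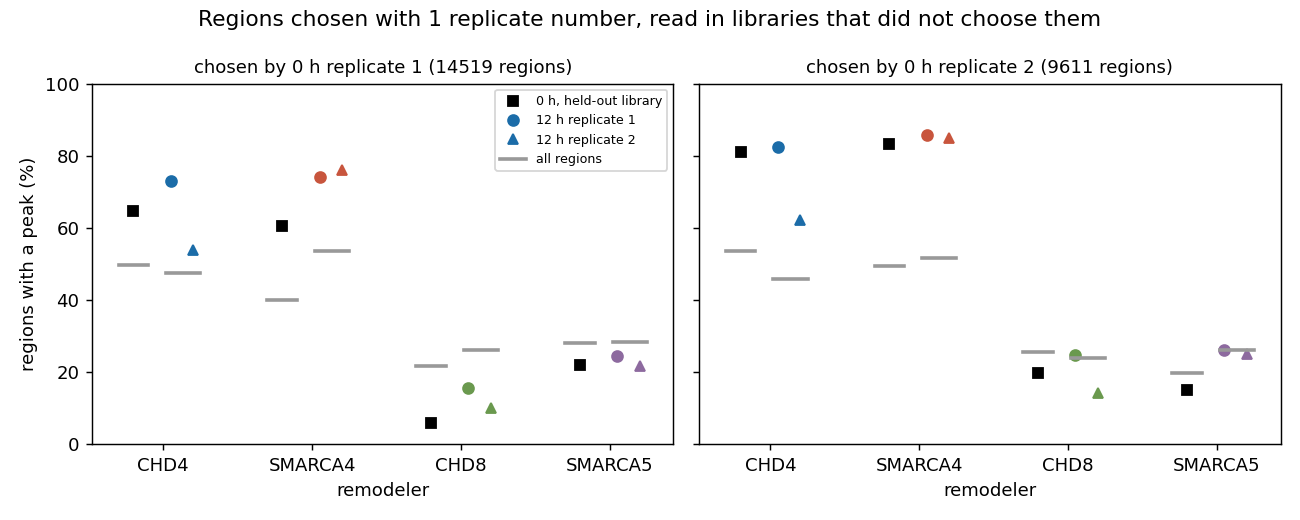
Percentage of regions with a peak (y axis) for each remodeler, in regions chosen with the 0 h libraries of replicate 1 (left) or replicate 2 (right); squares are the held-out 0 h library, circles and triangles the 12 h libraries and grey bars all regions. SMARCA4 on the left and SMARCA5 on the right lie higher at 12 h, with all regions 13.7 and 6.47 points higher.

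A total of 2781 protein-coding genes (12.8% of 21728) were the nearest gene of a CHD4-SMARCA4 region, 2082 of them for 1 region and 229 for 3 or more. Enc1, an actin-binding protein of the nervous system, was nearest to 11 regions, and Cdh2, which encodes N-cadherin, to 10 regions, all over 332 kb away. Igfbp3 (a binding protein of insulin-like growth factors) and Tbl1xr1 (a subunit of NCoR corepressor complexes) had 9 each. Sox2 and Cntn5, a cell adhesion gene, had 8 each, and Pcmtd1, the zinc-finger factor gene Klf6, Thpo (thrombopoietin) and Smad7, an inhibitor of TGF-beta signalling, had 7 each. At 12 h all 10 Cdh2 regions had a CHD4 peak in replicate 1 and 6 in replicate 2, 10 and 9 had a SMARCA4 peak, and 0 had a CHD8 or SMARCA5 peak in any library. Over all CHD4-SMARCA4 regions 52.4% had no CHD8 or SMARCA5 peak. At Enc1 the counts were 8 and 6 for CHD4, 10 and 11 for SMARCA4, 1 and 1 for CHD8 and 1 and 3 for SMARCA5. At Sox2 they were 7 and 4, 7 and 7, 2 and 1, and 2 and 4.

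Pluripotency genes often had a CHD4-SMARCA4 region nearby. Within 100 kb of a start site lay at least 1 such region for 27.9% of all protein-coding genes (6052 genes). Of 7 genes listed as core pluripotency factors, 6 had one (85.7%). The other, Tcf3, was matched by that symbol to a gene on chromosome 10, 1949 kb from the nearest region. That gene is not Tcf7l1, which was counted among the Wnt targets and had 2, so the share depends on this entry of the list. Nanog had 4 and Sox2 3, Esrrb had 2, and Klf4 and Pou5f1, which encodes OCT4, had 1 each. The 4 regions near Nanog, the closest at chr6:122734691-122735893 and 27.1 kb from a start, had CHD4 peaks in 3 and 3 cases at 12 h, SMARCA4 peaks in 4 and 4, CHD8 peaks in 0 and 0 and SMARCA5 peaks in 2 and 2. The 3 regions near Sox2, the closest at chr3:34688357-34689913 and 38 kb away, had CHD4 peaks in 3 and 2, SMARCA4 peaks in 2 and 3, CHD8 peaks in 2 and 1 and SMARCA5 peaks in 0 and 3.

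Of 23 genes of the naive state 14 had a region (60.9%). Klf4 and Esrrb stand in this list and in the core list, and Dppa2 and Dppa4 shared 1 region, so the counts are not independent. Tbx3, a T-box factor, had 6, the closest at chr5:119655051-119655873, with CHD4 peaks in 4 and 4 at 12 h, SMARCA4 peaks in 5 and 6 and CHD8 peaks in 2 and 2. Socs3, the feedback inhibitor of LIF-STAT3 signalling, had 3, and all 3 had CHD4 and SMARCA4 peaks in every 12 h library of these remodelers. The same held for 58.1% of all CHD4-SMARCA4 regions. Dppa3 had 2, of which 1 covered a start site (chr6:122625973-122626820), and Il6st, which encodes the gp130 receptor subunit of LIF, had 2. Of 17 genes of the formative and primed states 11 had one (64.7%): Foxd3 had 3, the DNA methyltransferase gene Dnmt3b and Sox11 had 2, and Zic2 and Zic5, which neighbour each other, shared 2.

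Of 18 genes of the FGF and ERK pathway 9 had a region (50%), with 4 near Dusp6, a phosphatase of ERK, 3 near Spry2, an inhibitor of the pathway, and 2 near Myc. The 4 near Dusp6, the closest at chr10:99292714-99294362, had CHD4 peaks in 4 and 1 at 12 h, SMARCA4 peaks in 4 and 4, CHD8 peaks in 0 and 1 and SMARCA5 peaks in 0 and 3. Of 14 matched genes (15 listed) of the Nodal and BMP pathway 6 had one (42.9%), with 5 near Smad7, 3 near Id2, a target of BMP signalling, and 2 near Inhbb. All 5 near Smad7, the closest at chr18:75384891-75385430, had a peak in each CHD4 and SMARCA4 library at 12 h, as did 58.1% of all CHD4-SMARCA4 regions. Of 14 Wnt pathway targets 6 had one (42.9%), with 3 near Tcf7 and 2 each near Tcf7l1 and Cdx1.

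Genes of later lineages were nearer to the value over all genes. Of 22 endoderm and mesoderm regulators 7 had a region (31.8%), with 2 each near Gata3, Gsc, Hand1 and Tbx20. Of 17 neural regulators 4 had one (23.5%), with 2 near Pax6. Genes of the remodelers' complexes were counted too. A region lay near 14 of 27 BAF subunit genes (51.9%), with 2 each near Arid1b, Bcl7b, Bicral and Dpf1, and near 7 of 19 genes of NuRD subunits and partners (36.8%), with 2 near Cbx3, which encodes HP1 gamma. Chd4 and Smarca4 themselves had 0 within 100 kb, the nearest being 164 and 101 kb away.

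The other classes of region were counted near the same genes. A distal shared region lay within 100 kb of 7 of the 7 genes listed as core factors (Tcf3 included), 73.9% of the naive genes and 37.6% of all genes. A region of CHD4 alone lay near 85.7% of the core factors, 82.6% of the naive genes and 62.7% of all genes, and a region of SMARCA4 alone near 71.4%, 69.6% and 27.4%. No test was made of the lists.

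**Figure D5:**
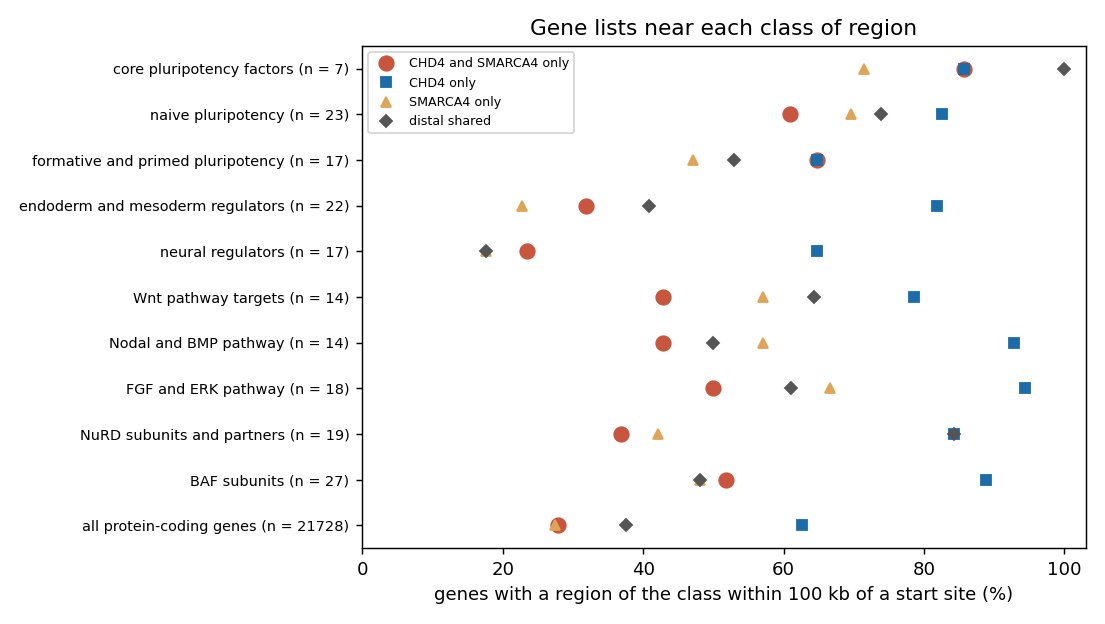
Percentage of the genes of each list with a region of a class within 100 kb of a start site (x axis), for CHD4-SMARCA4 regions, regions of CHD4 alone, regions of SMARCA4 alone and distal shared regions; the lowest row gives all 21728 protein-coding genes. The genes listed as core factors, Tcf3 included, lie at 85.7% and all genes at 27.9% for CHD4-SMARCA4 regions.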

How the data were processed

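Peak lists of 20 of 30 samples were used, apart from that of SMC1A at 12 h; the 10 inputs were not analysed here. Per the submitters' processing notes, the tools were Trim Galore, Bowtie2, MACS2 and deepTools and the builds mm10 and hg38; versions, the role of each build, the control and the treatment of reads with several matches are not given in the sources used here. In the deposited lists, column 7 was read as the fold enrichment (a ratio) and columns 8 and 9 as the −log10 p-value and −log10 q-value given by the authors' caller; each list is of 1 sample and the lowest −log10 q of each remodeler list rounds to 1.3. Read depth is unknown. Every peak ended within the GRCm38 chromosomes, so that genome and the GENCODE M21 basic annotation were used.

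A region held a peak when they overlapped by at least 1 bp. Shares have exact Clopper-Pearson 95% intervals. Classes were compared by the log2 odds ratio of holding a 12 h peak within each library (0.5 added to each cell), tested over libraries by exact two-sided sign-flip permutation, with Benjamini-Hochberg adjustment over 4 tests. The code was tested on simulated lists. Named genes were the 10 nearest to the most regions, up to 5 per list by number of regions within 100 kb, and those nearest to the strongest regions with all CHD4 and SMARCA4 peaks and no other at 12 h (6), with none of them (3) or with peaks in all 8 lists (3). The regions, gene lists and motifs were chosen with earlier results of these data known. Analyses used Python 3.11.15, numpy 2.4.6, pandas 2.3.3, scipy 1.17.1 and matplotlib 3.10.9.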

Additional observations from a re-analysis of the deposited data

Results flagged for a closer look

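Within the CHD4-SMARCA4 regions, the contrast between regions within 10 kb of a CTCF peak and regions farther away had opposite signs in different remodelers. The mean log2 odds ratio of holding a 12 h peak, near against far, was -0.086 for CHD4, negative in both of its libraries (-0.15 and -0.02). It was 0.63 for CHD8, 0.44 for SMARCA5 and 0.17 for SMARCA4, positive in both libraries of each. The differences from CHD4 were 0.71, 0.52 and 0.26. None of these differences was tested. SMARCA4 replicate 1 was at -0.17 with near taken as within 25 kb and at -0.03 without the regions within 1 kb of a start site. The CHD4 values were positive, at 0.08 and 0.10, when CHD4_0h replicate 2 was left out of the rule.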

How the results depend on the processing

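The number of CHD4-SMARCA4 regions depended most, among the alternatives run, on the length of the peak lists. With all lists at the length of the shortest, 620 regions were left, 8.39% of them within 1 kb of a start site, and the 12 h shares were 21.5% (CHD8), 81.9% (SMARCA4) and 22.3% (SMARCA5). With −log10 q of at least 5 the SMARCA4 and SMARCA5 shares were 90.3% and 17.2%, and with summits required inside the region 83.8% and 21.7%. The SMARCA5 share was 22.6% with peaks a short gap apart merged, 22.6% with 5 kb around CTCF dropped and 20.8% with no CHD8 or SMARCA5 peak within 1 kb. A start site window of 2.5 kb held 14.5%. Chosen by replicate 2 in place of replicate 1, the 12 h minus 0 h difference was -0.33 points for CHD8 (7.03 by replicate 1), 2.03 for SMARCA4 (14.8) and 10.6 for SMARCA5 (1.11); the cause was not tested.

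Leaving out libraries, the number ranged from 3884 to 6609, the start site share from 7.01% to 9.62%, and the 12 h shares from 67.9% to 86.6% (CHD4), 10.2% to 20.6% (CHD8), 77% to 90.1% (SMARCA4) and 19.6% to 31% (SMARCA5). The log2 odds ratios ranged from -4.7 to -3.57 against distal shared regions, 1.6 to 2.13 against the remodeler alone, 1.66 to 2.38 for CHD8 and SMARCA5 and 0.10 to 0.44 for near against far. The near-far ratio passed adjustment only without CHD4_0h replicate 2 (0.40). The sign of the mean over libraries was the same for these 4 ratios under every alternative run. Single libraries differed for near against far, which was higher near in 3 of 8 with −log10 q of at least 5. With summits required inside the region it was higher near in 4 of 8. The width class, the limit to regions over 1 kb from a start site and the omission of CHD4 replicate 2 at both times were chosen after seeing the data; the last gave 84.8% for SMARCA4 and 20.4% for SMARCA5. No paired analysis was possible because no tested comparison set 0 h against 12 h, the 0 h libraries having chosen the regions. On held-out regions the differences within a replicate number, with no test, were -10.7 points for CHD4 (chosen by replicate 1) and 1.26 (by replicate 2), where the 12 h mean gave -1.19 and -8.79, and 4.28 and 5.03 for CHD8.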
